A study of Mus musculus with 9 samples.

Results

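The genes examined here were 8 mRNAs of the astrocyte machinery for cell volume and ion balance at the vessel wall. They were taken by symbol out of the 22092 genes of the count files: Mlc1, Hepacam (which encodes GlialCAM), Clcn2 (ClC-2), Lrrc8a, Lrrc8b, Lrrc8c, Lrrc8d and Trpv4. All libraries came from mice of 2 months that carried the Aldh1L1-L10aGFP transgene (strain Aldh1L1 JD130), in which the astrocyte promoter Aldh1l1 drives a GFP-tagged ribosomal protein. In translating ribosome affinity purification (TRAP), tagged ribosomes are pulled down with a GFP antibody and the mRNAs bound to them are sequenced. TRAP was performed on whole brain (whole astrocyte TRAP, 3 libraries of 1 brain each, choroid plexus removed beforehand) and on purified brain vessels, to which astrocyte endfeet stay attached (endfeet TRAP, 6 libraries, each from the vessels of 8 mice pooled). The comparison asked which ribosome-bound mRNAs differ in level between perivascular endfeet and whole astrocytes. Libraries are called A1 to A3 (whole astrocyte) and E1 to E6 (endfeet).

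MLC1 is a membrane protein of astrocyte junctions around vessels, and GlialCAM is an adhesion molecule that brings MLC1 and the chloride channel ClC-2 to those junctions. Loss of MLC1 or GlialCAM causes a leukodystrophy with brain swelling, megalencephalic leukoencephalopathy with subcortical cysts. Proteins of the LRRC8 family form the volume-regulated anion channel, which releases chloride and organic osmolytes from swollen cells. LRRC8A is its obligatory subunit, and it combines with LRRC8B, C, D or E. TRPV4 is a calcium-permeable cation channel opened by swelling and warmth, known in endfeet and also in the epithelium of the choroid plexus.

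The 4 Lrrc8 genes measured here are paralogs, so their sequences bear on whether reads of 50 bases can tell them apart. The first 60 coding bases of each are given here (GENCODE M21 transcripts, mm10, + strand, 5′ to 3′), with the 26 positions that are the same in all 4 genes in capitals.
Lrrc8a (chr2:30255176-30255235): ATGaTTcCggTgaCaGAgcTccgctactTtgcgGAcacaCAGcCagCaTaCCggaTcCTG
Lrrc8b (chr5:105479790-105479849): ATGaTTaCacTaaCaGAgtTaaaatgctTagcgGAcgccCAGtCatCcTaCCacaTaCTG
Lrrc8c (chr5:105579472-105579531): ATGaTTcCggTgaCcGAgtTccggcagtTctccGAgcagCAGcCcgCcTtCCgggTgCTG
Lrrc8d (chr5:105811726-105811785): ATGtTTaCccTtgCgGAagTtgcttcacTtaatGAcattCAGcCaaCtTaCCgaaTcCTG
Over the whole coding sequence the pairs were 60.8% (Lrrc8b and Lrrc8d) to 67.6% (Lrrc8a and Lrrc8b) identical. The longest identical run in a pair was 30 bases, shorter than a read. No stretch of 50 bases of Mlc1, Hepacam, Clcn2, Lrrc8a, Lrrc8b, Lrrc8d or Trpv4 recurred in another gene elsewhere, and 0.332% of the stretches of Lrrc8c did. Lrrc8b, Lrrc8c and Lrrc8d lie in this order on the + strand of chromosome 5, from 105415775 to 105490074, from 105519388 to 105613018 and from 105699969 to 105832436.

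Gene totals were 35984144 to 43521208 counts in whole astrocyte libraries and 2319495 (E6) to 13450588 in endfeet libraries, so that 3 counts, the smallest amount taken as seen, corresponded to at most 0.0834 CPM (counts scaled by the library's total, and by TMM where libraries are compared) in the former and at most 1.29 CPM in the latter. Libraries of endfeet TRAP varied more among themselves (common edgeR dispersion 0.705) than those of whole astrocyte TRAP (0.0141). The edgeR test used below takes 1 dispersion per gene for both groups, so that its SE and p-values pool these unlike spreads. E1, E2 and E3 carry file numbers of one series (series A), and E4, E5, E6 and all whole astrocyte libraries those of another (series B), a candidate batch whose meaning is not stated. Markers of other cells were higher in endfeet TRAP: 10 of 10 endothelial, 10 of 10 mural, 8 of 8 fibroblast and 7 of 8 choroid plexus mRNAs passed the test. The summed CPM of the endothelial list was 6.36 to 7.28 in whole astrocyte libraries and 3229 to 4748 in endfeet libraries. For mural cells it was 42.4 to 47.8 and 4127 to 8636, for fibroblasts 29.9 to 44.7 and 1612 to 2371, and for choroid plexus 77.7 to 1547 and 7000.02 to 91396. No marker was at 0 in all endfeet libraries (Ly6c1, of endothelium, was at 0 in all whole astrocyte libraries). Of 10 astrocyte markers 7 were lower and none higher, and their sum was 16381 to 16710 CPM in whole astrocyte and 2511 to 5566 CPM in endfeet libraries. Aldoc made up most of the whole astrocyte sum (10763 to 10968 CPM, against 343 to 1064 in endfeet libraries), and Slc1a3, Slc4a4 and Fgfr3 were not called. Microglia and macrophage markers were higher for 6 of 8 and ependymal markers for 4 of 7, and neuronal markers were lower for 3 of 8 and oligodendrocyte markers for 2 of 8. The part of these other cells in the results below was not tested, and fewer cells of a type and less RNA per cell cannot be told apart.

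Of the 8 mRNAs, 6 were higher in endfeet TRAP (Clcn2, Lrrc8a, Lrrc8b, Lrrc8c, Lrrc8d and Trpv4), 1 was lower (Hepacam), and 1, Mlc1, did not pass the threshold (edgeR quasi-likelihood test over all genes, Benjamini-Hochberg adjusted p at most 0.05). Of all 14427 genes tested, 34.6% were called, 20.7% higher and 13.9% lower. All 8 passed the filter on low counts. Trpv4 did so only through the endfeet libraries, where it was high, so that its test is not independent of the filter. Their median log2 fold change was 1.72, beside 0.10 over all genes tested. For Clcn2, Lrrc8a, Lrrc8c and Trpv4 every endfeet library lay above every whole astrocyte library, which held for 18.9% of all genes, and for Hepacam every endfeet library lay below, which held for 23.8%. The remaining 3 mRNAs overlapped between the groups.

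**Figure D1:**
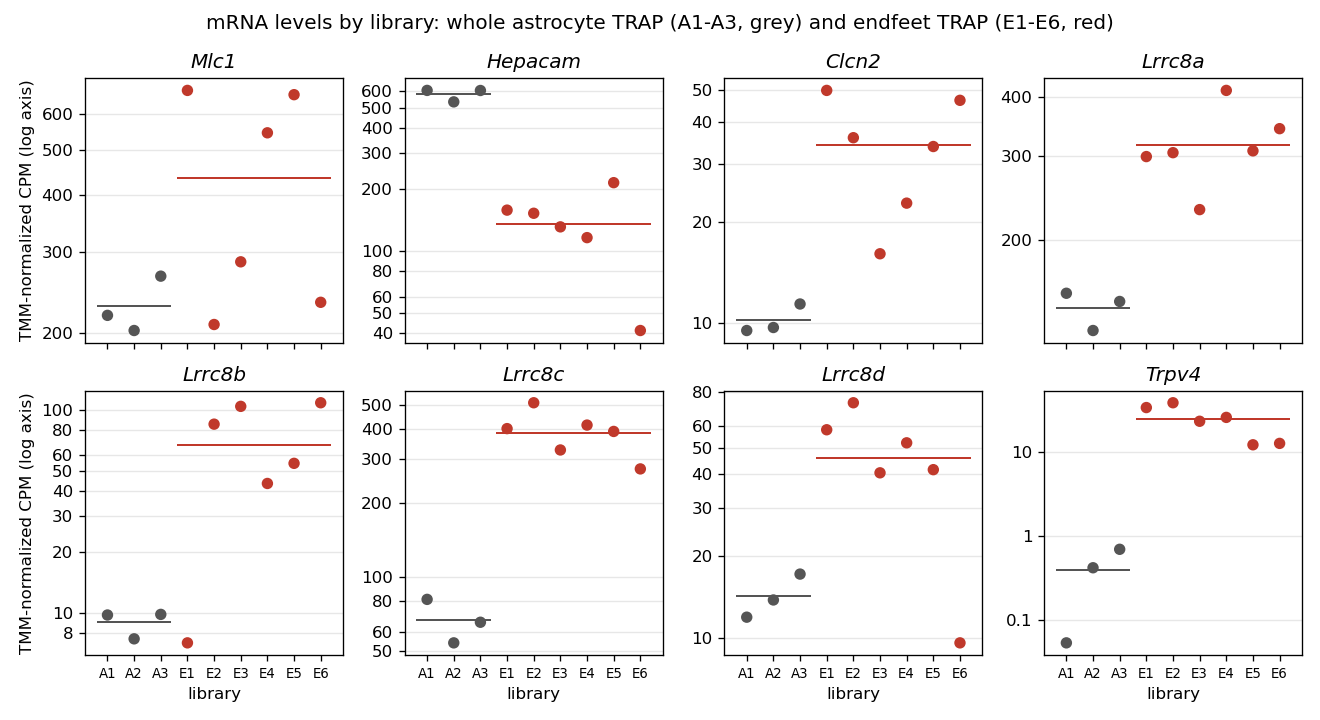
Levels of the 8 mRNAs in each library, in TMM-normalized CPM (log axis, a scale of its own in each panel). Grey points are the 3 whole astrocyte libraries, red points the 6 endfeet libraries, and lines are group means. Hepacam is lower in all 6 endfeet libraries, Trpv4 is below 1 CPM in all 3 whole astrocyte libraries, and E1 for Lrrc8b and E6 for Lrrc8d lie below the whole astrocyte libraries.

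Of Mlc1 and Hepacam, whose proteins work as a pair, Hepacam was lower in endfeet TRAP and Mlc1 was not called. Mlc1 (chromosome 15, 88955884 to 88979007, - strand) had 219, 203 and 266 CPM in A1, A2 and A3, and 674, 209, 286, 545, 659 and 233 CPM in E1 to E6. E1, E3, E4 and E5 were above all whole astrocyte libraries, whereas E2 and E6 lay among them. The log2 fold change was 0.92 (SE 0.41, 95% interval 0.04 to 1.80, edgeR adjusted p = 0.0963, n = 3 and 6). E1, E4 and E5, the libraries with the most Mlc1, were also those with the highest summed astrocyte markers (5553, 4468 and 5566 CPM, against 2511 to 3303 in E2, E3 and E6). Hepacam followed them in part: it was highest in E5 and E1, but E4 (116 CPM) was below E2 and E3 (153 and 131 CPM). The part of astrocyte content in either gene's spread was not tested. Without E2 the adjusted p was 0.0416 (log2 fold change 1.13), and without E6 it was 0.0477 (1.05).

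Hepacam (chromosome 9, 37367351 to 37386575, + strand, a single annotated transcript in the files) had 607, 534 and 606 CPM in A1, A2 and A3. In E1 to E6 it had 159, 153, 131, 116, 216 and 41.1 CPM, all below the lowest whole astrocyte library. It fell by 2.09 on the log2 scale (SE 0.36, 95% interval -2.88 to -1.31, edgeR adjusted p = 6.96e-04, n = 3 and 6). E6, the shallowest library, had the lowest value, from 90 counts, and without any 1 library the log2 fold change stayed between -2.39 and -1.90 with the call kept.

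Ratios within a library do not depend on the scaling between libraries, and were taken from counts per kilobase of transcript. The Hepacam to Mlc1 ratio was 2.32, 2.20 and 1.91 in A1 to A3, and 0.197, 0.613, 0.385, 0.179, 0.274 and 0.148 in E1 to E6. Hepacam therefore exceeded Mlc1 in every whole astrocyte library and was below it in every endfeet library. The mean difference was -3.02 on the log2 scale (two-sided exact permutation test over 84 splits, p = 0.0119, the smallest these groups allow, adjusted p = 0.0238 over 6 ratios, n = 3 and 6). Relative to Aldh1l1, the gene whose promoter drives the ribosome tag, Hepacam did not differ beyond the spread: the ratio was 2.51 to 3.13 in whole astrocyte TRAP and 1.23 to 10.8 in endfeet TRAP (difference 0.35 on the log2 scale, exact permutation adjusted p = 0.643). Aldh1l1 itself was lower in endfeet TRAP by 2.38 on the log2 scale. The median of the log2 fold changes over the 10 astrocyte markers was -1.91. Mlc1 relative to Aqp4, the water channel of endfeet, was 0.663 to 1.004 in whole astrocyte TRAP and 0.221 to 0.650 in endfeet TRAP, with all endfeet libraries below. That difference, -0.78 on the log2 scale, did not pass after adjustment (exact permutation p = 0.0476, adjusted p = 0.0714).

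**Figure D2:**
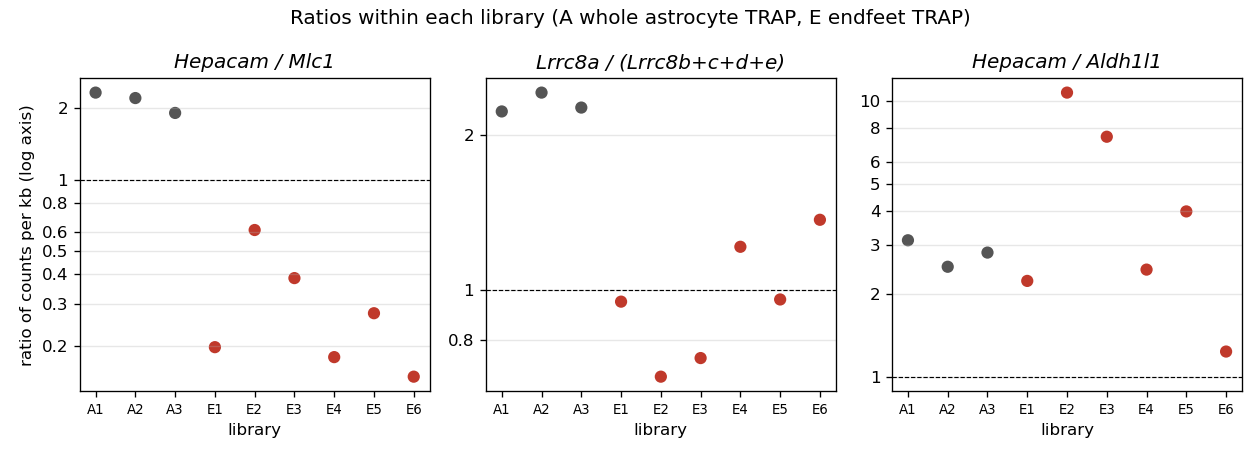
Ratios of counts per kilobase within each library (log axes), for Hepacam to Mlc1, for Lrrc8a to the sum of the other Lrrc8 mRNAs and for Hepacam to Aldh1l1. Grey points are whole astrocyte TRAP, red points endfeet TRAP, and the dashed line marks equal levels. Hepacam to Mlc1 is 1.91 to 2.32 in whole astrocyte and 0.148 to 0.613 in endfeet libraries, whereas Hepacam to Aldh1l1 overlaps between the groups.

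Clcn2, the chloride channel partner of GlialCAM (chromosome 16, 20702964 to 20717746, - strand), had 9.46, 9.66 and 11.4 CPM in A1 to A3 and 49.9, 36.0, 16.1, 22.9, 33.8 and 46.6 CPM in E1 to E6. All endfeet libraries were above all whole astrocyte libraries. The log2 fold change was 1.75 (SE 0.515, 95% interval 0.63 to 2.86, edgeR adjusted p = 0.0188, n = 3 and 6), and leaving out A1, A2 or A3 gave adjusted p = 0.0855, 0.0927 and 0.0736. Relative to Mlc1, Clcn2 was 0.0383 to 0.0427 in whole astrocyte TRAP and 0.0376 to 0.179 in endfeet TRAP, and the ratio did not differ beyond the spread (difference 0.89 on the log2 scale, exact permutation adjusted p = 0.157).

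Clcn2 was measured on the transcript ENSMUST00000007207. An alternative coding transcript, ENSMUST00000120099, lacks 259 of its bases at the 3′ end (85 of them inside exons of Fam131a on the opposite strand), 6 noncoding bases near the 5′ end and 51 coding bases. The 51 coding bases (capitals), with 12 exonic bases on each side (lower case), show where the coding sequences of these transcripts part.
Clcn2 (chr16:20709630-20709680, - strand, mm10): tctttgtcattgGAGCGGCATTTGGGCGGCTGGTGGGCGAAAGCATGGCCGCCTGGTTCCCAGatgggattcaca
Of the counts of the measured transcript, 69.7%, 68.8% and 48.8% in A1 to A3 were not on the alternative one, and in E1 to E6 the share was 25.2%, 35.5%, 44.5%, 34.9%, 26.4% and 35.3%. The share was thus higher in every whole astrocyte library than in any endfeet library, and the groups differed in which bases the Clcn2 counts came from. Fam131a, whose reads cannot be told apart from those of Clcn2 on the 85 shared bases unless the counting used strand, had 40.1 to 41.7 CPM in whole astrocyte and 12.6 to 35.6 CPM in endfeet libraries. Measured on the shorter transcript instead, an alternative added after the data were seen, Clcn2 had 2.87, 3.02 and 5.82 CPM in A1 to A3 and 37.3, 23.2, 8.94, 14.9, 24.9 and 30.1 CPM in E1 to E6. Its log2 fold change was then 2.57 (SE 0.67, edgeR adjusted p = 0.00957), larger than on the longer one and in the same direction. The difference in its ratio to Mlc1 was then 1.74 on the log2 scale (exact permutation p = 0.0357, adjusted p = 0.0536), beside 0.89 on the longer one.

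Lrrc8a, the obligatory subunit of the volume-regulated anion channel (chromosome 2, 30237715 to 30263790, + strand), had 154, 129 and 148 CPM in A1 to A3. In E1 to E6 it had 299, 305, 231, 412, 308 and 343 CPM, and no endfeet library overlapped the whole astrocyte libraries. The log2 fold change was 1.14 (SE 0.25, 95% interval 0.59 to 1.68, edgeR adjusted p = 0.00378). With a coefficient of variation of 18.8%, it varied least of the 8 among endfeet libraries. On 66.3% of its counted bases Lrrc8a overlaps Gm28035, a read-through gene on the same strand, and reads there cannot be told apart. Lrrc8a had 5707, 4866 and 6755 counts in A1 to A3, and 1595, 2654, 3522, 5124, 4174 and 750 in E1 to E6. Gm28035 had 3502, 3436 and 4971 in A1 to A3, and 499, 1151, 1885, 2716, 1383 and 272 in E1 to E6. Relative to Lrrc8a, Gm28035 was thus higher in every whole astrocyte library than in any endfeet library.

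Lrrc8c, a partner subunit of LRRC8A in the channel, had 81.3, 54.2 and 65.7 CPM in A1 to A3 and 400, 509, 328, 413, 389 and 274 CPM in E1 to E6. The lowest endfeet library was above the highest whole astrocyte library. Its log2 fold change, 2.52 (SE 0.29, 95% interval 1.89 to 3.16, edgeR adjusted p = 2.92e-05), had the smallest adjusted p of the 8. Leaving out any 1 library kept it between 2.37 and 2.72.

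Lrrc8b had 9.785, 7.46 and 9.85 CPM in A1 to A3 and 7.13, 85.6, 104.8, 43.6, 54.8 and 109 CPM in E1 to E6. E1 stood below all whole astrocyte libraries, with 38 counts, whereas the other 5 stood above them. The log2 fold change was 2.90 (SE 0.71, 95% interval 1.36 to 4.43, edgeR adjusted p = 0.0068). E1 and E6 set the range, and the coefficient of variation among endfeet libraries, 58.6%, was the highest of the 8.

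Lrrc8d, a subunit linked to transport of organic osmolytes and some drugs, had 11.9, 13.8 and 17.2 CPM in A1 to A3. In E1 to E6 it had 58.2, 73.1, 40.4, 52.1, 41.5 and 9.59 CPM, so that E6, with 21 counts, lay below the whole astrocyte libraries and the other 5 above them. The log2 fold change was 1.68 (SE 0.57, 95% interval 0.46 to 2.91, edgeR adjusted p = 0.0348). Of the 9 fits that left out 1 library, only those without E1 and without E6 kept the call, and the others gave adjusted p between 0.0513 and 0.131. In E6 an intronic transcript annotated to the gene, ENSMUST00000140608, had more counts (25) than the one used here. The source of these intronic reads was not tested. Lrrc8d overlaps the antisense gene Lrrc8dos on 218 of its 3929 counted bases.

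Lrrc8e, the remaining family member, had 0 counts in all 9 libraries, which allows up to 0.0689 to 0.0834 CPM in whole astrocyte TRAP and up to 0.223 to 1.29 CPM in endfeet TRAP. These limits cover reads counted on the gene, and reads that aligned more than once had been removed (1.96% of its stretches of 50 bases recur in another gene). Over the other 4, measured per transcript length (TPM, each gene's counts per kilobase as parts of a fixed total), the family summed to 136 ± 14.9 TPM (SD, n = 3) in whole astrocyte TRAP and to 480 ± 96.6 TPM (SD, n = 6) in endfeet TRAP. Its make-up differed too. Lrrc8a held 69.0%, 70.7% and 69.3% of the family in A1 to A3 and 48.7%, 40.5%, 42.5%, 54.8%, 49.0% and 57.9% in E1 to E6. Lrrc8c held 18.3% to 22.4% in whole astrocyte and 28.6% to 41.6% in endfeet libraries. The groups do not overlap for either share. Lrrc8b held 2.62% to 2.95% in whole astrocyte TRAP and 0.743% to 12.3% in endfeet TRAP, and Lrrc8d 7.64 ± 1.58% and 7.62 ± 3.20%, both with overlap.

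The ratio of Lrrc8a to the sum of Lrrc8b, Lrrc8c, Lrrc8d and Lrrc8e was 2.22, 2.42 and 2.26 in A1 to A3 and 0.950, 0.680, 0.739, 1.21, 0.959 and 1.37 in E1 to E6. The obligatory subunit was thus above the sum of its partners in all whole astrocyte libraries and in 2 of 6 endfeet libraries. The mean difference was -1.27 on the log2 scale (two-sided exact permutation test, p = 0.0119, adjusted p = 0.0238, n = 3 and 6). In E4 to E6, the endfeet libraries of series B, it was -0.98, with a smallest possible p of 0.1. The ratio and the shares above use all Lrrc8a counts, including those on the bases that overlap Gm28035. Relative to Lrrc8a, Gm28035 differed between the groups, and its part in the ratio and the shares was not tested.

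**Figure D3:**
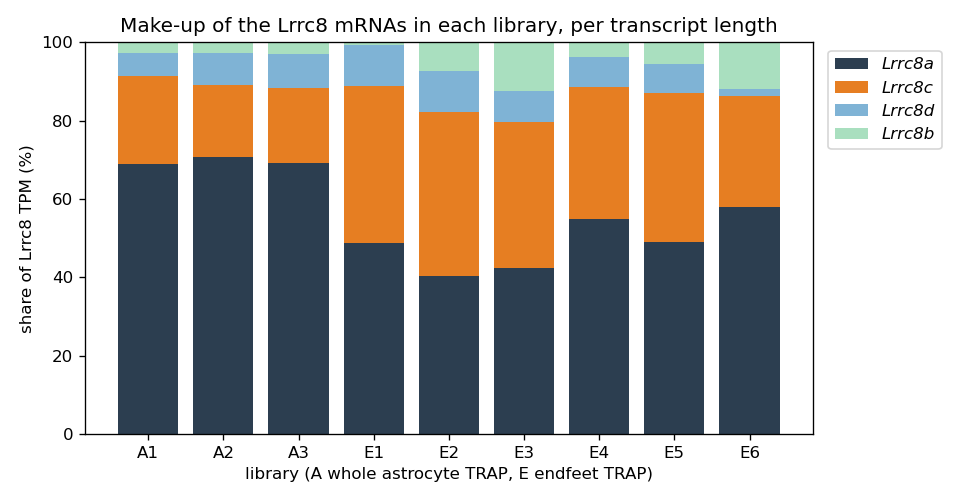
Make-up of the Lrrc8 mRNAs in each library, as the share of the summed TPM of Lrrc8a, Lrrc8b, Lrrc8c and Lrrc8d (Lrrc8e was at 0). Lrrc8a takes 69.0% to 70.7% in whole astrocyte libraries (A) and 40.5% to 57.9% in endfeet libraries (E), and Lrrc8c takes more in every endfeet library than in any whole astrocyte library.

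Trpv4 (chromosome 5, 114622152 to 114658421, - strand) had 2, 16 and 32 counts in A1 to A3, which is 0.0541, 0.423 and 0.702 CPM. In E1 to E6 it had 182, 339, 357, 324, 167 and 28 counts, or 34.1, 38.95, 23.5, 26.1, 12.3 and 12.8 CPM, so every endfeet library lay above every whole astrocyte library. The log2 fold change was 5.94 (SE 0.97, 95% interval 3.85 to 8.02, edgeR adjusted p = 4.15e-04, n = 3 and 6), the largest of the 8, and the A1 value is under the 3 counts taken as seen. Leaving out any 1 library gave 5.47 to 6.63 with the call kept, the highest without A3. As Trpv4 passed the filter on low counts only through endfeet libraries, its call leans on the group where it is high. Relative to Mlc1, Trpv4 was 2.68e-04 to 0.00233 in whole astrocyte TRAP and 0.0162 to 0.162 in endfeet TRAP (difference 5.59 on the log2 scale, exact permutation adjusted p = 0.0238).

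Both Trpv4 and the summed markers of choroid plexus were higher in every endfeet library than in any whole astrocyte library. The sum over 8 markers was 77.7 CPM in A1, 1547 in A2 and 1268 in A3, and 91396, 41230.0, 26639, 14500.1, 7000.02 and 18813 CPM in E1 to E6. A1 was lowest and E5 was the lowest endfeet library for both, but the orders differed elsewhere: Trpv4 was highest in E2 and the markers in E1, A3 was above A2 for Trpv4 only, and E6 was below E4 for Trpv4 and above it for the markers. Ttr made up most of the sum in every endfeet library, so that the sum there is mostly a reading of Ttr. It ranged from 28.4 to 1382 CPM in whole astrocyte TRAP and from 6395 to 86764 CPM in endfeet TRAP. Of the 8 markers Otx2 did not pass the test and overlapped between the groups. It ranged from 24.4 to 42.8 CPM in whole astrocyte and from 5.75 to 66.0 CPM in endfeet libraries. The part of choroid plexus RNA in the Trpv4 value was not tested.

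**Figure D4:**
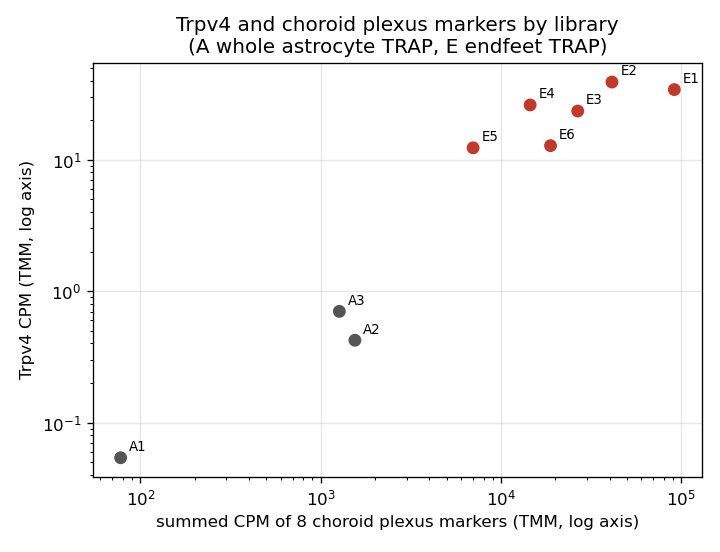
Trpv4 level against the summed level of 8 choroid plexus markers in each library (TMM-normalized CPM, log axes), for whole astrocyte TRAP (grey, A) and endfeet TRAP (red, E). A1 is lowest on both axes, and E5 is the lowest of the endfeet libraries on both, whereas E2 is highest for Trpv4 and E1 for the markers. Ttr makes up most of the sum in endfeet libraries.

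Within endfeet libraries of series B (E4, E5 and E6 against A1 to A3), the log2 fold changes were 0.93 for Mlc1, -2.35 for Hepacam, 1.63 for Clcn2, 1.17 for Lrrc8a, 2.80 for Lrrc8b, 2.29 for Lrrc8c, 1.15 for Lrrc8d and 5.29 for Trpv4. The calls were kept for all but Lrrc8d (edgeR adjusted p = 0.173), and Mlc1 stayed uncalled (adjusted p = 0.0799). Series A holds endfeet libraries only, so that no value within it can be had.

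**Figure D5:**
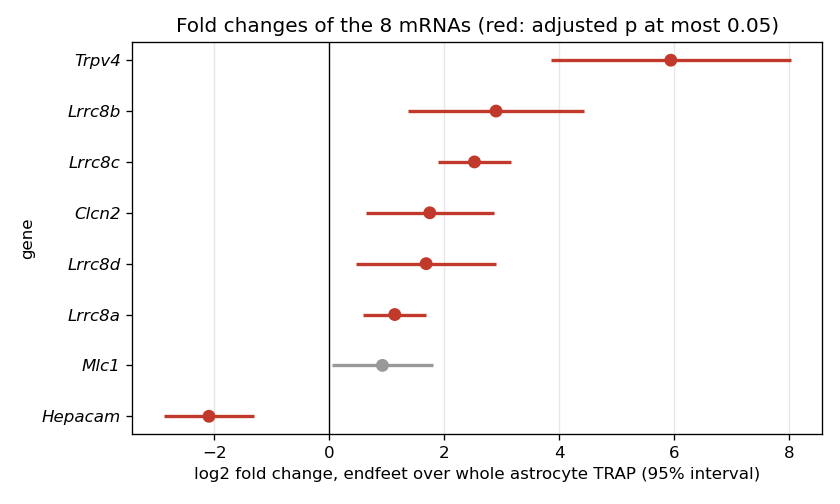
Log2 fold change of each mRNA, endfeet over whole astrocyte TRAP, with its 95% interval (edgeR, 3 and 6 libraries). Red marks adjusted p at most 0.05. Trpv4 is at 5.94, Hepacam at -2.09, and Mlc1 (grey) at 0.92 was not called.

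Ordered by mean TPM, whole astrocyte TRAP held Hepacam (491 ± 37.0), Mlc1 (231 ± 32.6), Lrrc8a (94.4 ± 9.15), Lrrc8c (27.2 ± 5.68), Lrrc8d (10.3 ± 1.85), Clcn2 (9.17 ± 0.906), Lrrc8b (3.79 ± 0.581) and Trpv4 (0.343 ± 0.283) (SD, n = 3). Only Lrrc8d and Clcn2, of the 7 neighbouring pairs, overlapped in range. Endfeet TRAP held Mlc1 (479.5 ± 221), Lrrc8a (234 ± 55.4), Lrrc8c (176 ± 43.9), Hepacam (129 ± 57.2), Lrrc8d (36.8 ± 17.7), Clcn2 (33.7 ± 10.7), Lrrc8b (33.4 ± 19.96) and Trpv4 (23.9 ± 10.4) (SD, n = 6). All 7 neighbouring pairs overlapped in range there, although within a library Mlc1 was above Lrrc8a in 6 of 6 and Lrrc8a above Lrrc8c in 5 of 6. By rank among 22092 genes, Hepacam went from 283 to 1361 and Mlc1 from 796 to 183.

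The other genes of this machinery were taken as 6 lists of 50 genes in all, of which 41 were tested. Of these 25 were higher and 1 lower, and their median log2 fold change was 1.67, beside 20.7% higher, 13.9% lower and a median of 0.10 over all genes tested. Among 13 genes listed with MLC1 and GlialCAM, 8 were higher, 1 lower and 4 not called. Among the higher ones were Aqp4 (1.67, SE 0.41), the potassium channel Kcnj10 (1.07, SE 0.35), dystroglycan Dag1 (2.35, SE 0.29), Gprc5b (1.05, SE 0.32), Tjp1, Cav1 and Hepacam2, and the lower one was Dtna, dystrobrevin of the dystrophin complex (-1.79, SE 0.35). Connexin 43, Gja1, had a log2 fold change of -0.01 (adjusted p = 0.989). Cav1 (4.86) is also expressed by endothelium, whose markers rose as given above. Hepacam2 (5.05, SE 1.28) was low, at 0.106 to 0.307 CPM in whole astrocyte and 0.750 to 18.3 CPM in endfeet libraries. It, too, passed the filter on low counts only through endfeet libraries.

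Among chloride channels and exchangers of the CLC family, 3 of 7 tested rose and none fell: Clcn4 (1.76), Clcn5 (2.599) and Clcn7 (3.04). Clcn3 (0.54), Clcn6 (1.05), Clcn1 (-1.48) and the Clcn7 partner Ostm1 (1.07) were not called. Of 6 tested candidates for other anion channels, the scramblase and channel Ano6 (3.41) and Ttyh2 (1.95) were higher and 4 were not called, among them the acid-activated channel Tmem206 (1.07) and Ttyh1 (-0.22), which was abundant in both groups.

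Cation-chloride cotransport and its kinases, which move chloride with sodium and potassium during swelling and shrinkage, had 7 of 10 higher and none lower. The sodium-potassium-chloride cotransporter Slc12a2 was at 3.72 (SE 0.45), and the potassium-chloride cotransporters Slc12a4 and Slc12a7 were at 2.50 and 5.35. The kinases Wnk1 (1.22) and Oxsr1 (1.70) were higher too, and the kinase Stk39 (0.36) was not called. All 4 tested genes of osmolyte uptake rose: the taurine transporter Slc6a6, which went from 39.1 to 2253 CPM on average (5.85, SE 0.43, edgeR adjusted p = 6.96e-07), the inositol transporter Slc5a3 (3.08), the betaine transporter Slc6a12 (3.66) and the osmotic transcription factor Nfat5 (2.41). Of the other TRPV channels only Trpv2 had enough counts to be tested (3.43, SE 1.001, adjusted p = 0.0179). The markers of vascular and choroid plexus cells that rose in the same libraries are given above, and their part in these lists was not tested.

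Over the 6 endfeet libraries, the genes whose log2(CPM + 1) followed Mlc1 most closely, among 8644 genes compared, were Astn1, Cd81 and Snap91 (each r = 0.99). For Hepacam they were Prrg3 (r = 0.9998), Tubb4a (0.997) and Tmc7 (0.99), for Clcn2 Kcnd2, Peli1 and Stat5a (0.99 each), and for Lrrc8a Npas3 (0.99), Klhl24 (0.98) and Mindy2 (0.97). For Lrrc8b they were Mycbp (0.999), Smco4 (0.99) and Oxa1l (0.98), for Lrrc8c Pik3r1 (0.995), Cdk6 (0.99) and Msl2 (0.99), for Lrrc8d Man2a1, Ino80c and Wnt5a (0.99 each), and for Trpv4 Ttll5 (0.98), Zfp236 (0.98) and Mia2 (0.97). With 6 points that share depth and library preparation, such values are a description. Among the 8 mRNAs themselves, Lrrc8c and Lrrc8d had r = 0.89, Mlc1 and Hepacam r = 0.54, and Mlc1 and Lrrc8b r = -0.74.

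CpG sites were counted in the RefSeq promoter windows (mouse build GRCm38) around each gene's start. Mlc1 held 3 and Hepacam 6, beside a median of 7 over 32851 windows. Of these windows 23.3% held fewer than Mlc1 and 43.6% fewer than Hepacam, which was thus near the median. Clcn2 held 13. Lrrc8a, Lrrc8b, Lrrc8c and Lrrc8d held 27 to 51 CpG sites, and Trpv4 held 30. Mlc1 and, narrowly, Hepacam were thus below the median and the channel genes above it.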

How the data were processed

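The authors made raw counts per Ensembl transcript with the Eoulsan pipeline (per the labels, HTSeq 0.5.3 and Bowtie): reads of 50 bases were filtered by quality and aligned to mm10, multiply aligned reads were dropped and the remainder counted. The deposited counts are not normalized. How strand was treated is not given in the sources used here. Transcripts were matched to GENCODE M21 of the same build (73164 of 75466), each of 22092 genes was represented by the transcript with the highest CPM summed over libraries, and rows of no gene were left out.

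Groups were compared with edgeR 4.0.16 (TMM, filterByExpr, quasi-likelihood test, Benjamini-Hochberg, threshold 0.05), with SE = |log2 fold change| / √F. Ratios used counts per kilobase with a pseudocount of 0.5 counts and two-sided exact permutation tests. The samples are separate brains or pools. The genes and lists were chosen with earlier results of these data known. Named genes are the 8 mRNAs, Lrrc8e, genes of the 6 lists, markers and the 3 most similar genes of each. Some genes of the lists are counted but not reported here by name. Alternatives were DESeq2 1.42.0, limma 3.58.1 (voom with group weights), other filters, scalings, series, blocks and libraries left out. The tests were tested on simulated data. Intervals cover the spread between these libraries, and floors of 3 counts cover counting error only.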

Additional observations from a re-analysis of the deposited data

Results flagged for a closer look

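The ratio of Mlc1 to Aqp4 in endfeet TRAP had 1 library apart from the others. E2 was at 0.221, and the other 5 lay between 0.518 and 0.650. Its gap to the nearest library was 0.789 of the whole range on the log2 scale, above Dixon's 95% critical value for 6 libraries. In 14 such values tested, chance flags about 1 in 20. Without E2 the difference between groups was -0.55 on the log2 scale (exact permutation adjusted p = 0.0268). The cause was not tested.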

How the results depend on the processing

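Hepacam, Lrrc8a and Lrrc8c kept direction and call in all 20 alternatives, and Trpv4 in 19 of 19 (at least 10 counts in every library left it no value). Fold changes of the 8 mRNAs kept their sign in every alternative run. The number called higher was 4 to 7 (main 6), the number called lower 1 in each, and pathway genes called 20 to 33 (main 26). Lrrc8d lost its call with endfeet libraries 4 to 6 only (1.15, adjusted p = 0.173) and with the number series as a covariate (1.28, adjusted p = 0.122). Mlc1 passed under limma voom with group weights (0.81, adjusted p = 0.011), which lets the spread differ between the groups. It did not pass under DESeq2 (adjusted p = 0.0829), which, like edgeR, takes 1 dispersion per gene for both groups.

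With E4 to E6 only, the differences in ratio were -3.46 for Hepacam to Mlc1, -0.98 for Lrrc8a to its partners and 4.92 for Trpv4 to Mlc1, none able to pass with 20 splits (adjusted p = 0.15), and Hepacam to Aldh1l1 turned to -0.29. Leaving out 1 library gave -3.26 to -2.85, -1.37 to -1.17, 4.599 to 6.16 and, for Mlc1 to Aqp4, -0.94 to -0.55. Without A1, A2 or A3 the first 3 had adjusted p = 0.0714, as fewer splits remain.

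Deviations of same-numbered libraries from their group means had correlations of -0.03, 0.01 and 0.07 (mean 0.015, beside -0.004 for other pairs). The labels state no pairing by replicate number, and 3 such pairs cannot exclude one. With the replicate block over libraries 1 to 3, Clcn2 (1.58, adjusted p = 0.0998) and Lrrc8b (2.34, adjusted p = 0.107) were not called, beside 0.0286 and 0.0368 without it in the same libraries. Over all genes, 2991 were called higher and 2006 lower in the main fit, and 3928 and 4485 under limma voom with group weights. The counts were 2798 and 2819 with E4 to E6 only, and 1874 to 1959 and 1171 to 1217 without A1, A2 or A3. The causes were not tested.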
